A study of Mus musculus with 24 samples.

Results

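Gene expression in the brain was compared between db/db and db/+ mice over the 3 drinks of the study. All 12 brain libraries of a series of 24 were used, 6 titled db/db and 6 titled db/+, and the other 12 are liver. They were chosen by their titles, because the separate genotype entry in the labels differs from the title in 6 of the 12. The mice were male, of strain C57/BL6 per the labels, and both genotypes were given water, sucrose or brazzein, a sweet-tasting plant protein, with 2 libraries of each genotype on each drink and a treatment entry of 16 weeks. db/db mice carry a defective leptin receptor on both chromosomes and db/+ mice keep 1 functional copy, so the reference animals are carriers. Neither the age nor the brain region is stated. Nothing in the labels says that replicates came from separate animals, so p-values measure the spread between libraries, which may be technical.

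Leptin is the hormone by which fat tissue reports energy stores to the brain. It acts on receptors in the hypothalamus, where JAK2 and STAT3 pass the signal on to neurons that make appetite-suppressing and appetite-promoting peptides. Without it, mice overeat, become obese and diabetic, and have raised circulating corticosterone, the rodent glucocorticoid.

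Libraries held 58287665 to 77772849 estimated counts, and 28711 to 30180 genes were above 0. Values are CPM, counts scaled to library totals adjusted by TMM, and differences are log2 db/db minus db/+ from edgeR's quasi-likelihood fit with drink as a covariate, with their standard error (SE). CPM is not scaled for gene length, so levels are compared between libraries and not between genes. All 17 neuronal markers were measured, and their summed level was 12966 to 13394 CPM in db/db and 13196 to 13689 in db/+. Of the 17, 1 was higher and 5 lower at an unadjusted edgeR p under 0.05 (6.53% and 6.78% of all genes). Only 4 lay above 0, and the median was -0.03. Without the 3 libraries with pituitary transcripts named below, 0 were higher and 3 lower (4.37% and 4.5% of all genes in that fit).

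Markers of neighbouring tissue differed between libraries. Gh, the growth hormone gene of the pituitary, was at 311 CPM in db/+ sucrose replicate 1, 111 in db/+ brazzein replicate 2 and 7.57 in db/+ water replicate 1. It was at 0.424 to 0.902 CPM in the other 3 db/+ libraries and at 0 to 2.90 in the 6 db/db libraries. Prl, the prolactin gene, was high in the same 3 db/+ libraries, at 37.3, 19.6 and 2.71 CPM, and at 0 to 0.195 elsewhere. The 3 libraries highest in Gh and Prl were thus all db/+, so this unevenness was not balanced over genotype. For Gh, the other db/+ libraries lay within the db/db range. Of the 16 pituitary markers, 12 were measured well enough to test. The summed level of all 16 was 262 to 613 CPM in db/+ and 252 to 294 in db/db. The sum was still 252 CPM in db/db water replicate 2, where Gh and Prl were at 0, so there it came from other members. Pcp2, a Purkinje cell gene that marks cerebellum, was at 17.3 CPM in db/+ water replicate 1 and at 60.7 to 72.6 in the other 11 libraries. The summed cerebellar markers were at 1095 CPM in that library, 2453 to 2871 in the other db/+ libraries and 2159 to 2535 in db/db. Of 20 cerebellar genes, 1 was higher and 0 lower at an unadjusted edgeR p under 0.05 (6.53% and 6.78% of all genes). Without db/+ water replicate 1, 1 was higher and 9 lower (the shares of all genes in that fit are not given here). Without the 3 libraries named below, 1 was higher and 8 lower (4.37% and 4.5% of all genes in that fit), with a median of -0.14. Results that touch these tissues are given with and without the 3 db/+ libraries that hold pituitary transcripts (db/+ water replicate 1, db/+ sucrose replicate 1 and db/+ brazzein replicate 2).

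**Figure D1:**
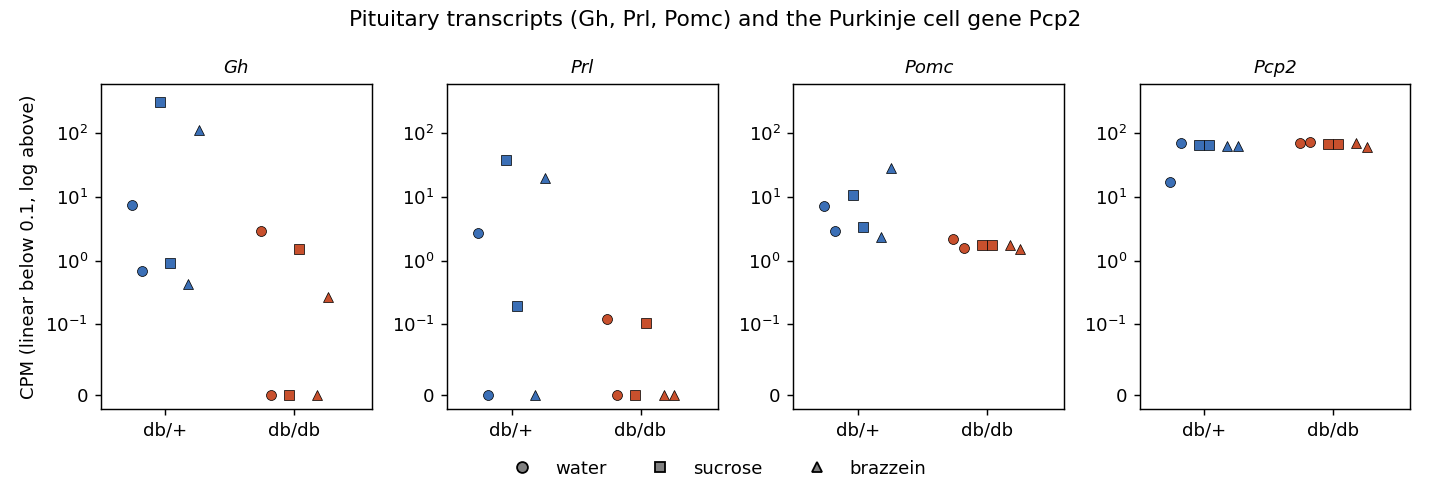
CPM (linear below 0.1, log above) of the pituitary genes Gh, Prl and Pomc and of the Purkinje cell gene Pcp2 in each brain library, by genotype, with marker shape for drink. Gh reaches 311 and 111 CPM in 2 db/+ libraries, and Pcp2 drops to 17.3 CPM in 1 db/+ library.

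Differences between the genotypes were small. Of 23653 genes tested, 0 passed edgeR at an adjusted p of 0.05 (percent called 0), and the smallest adjusted p was 0.0508, shared by 6 genes. At an unadjusted p under 0.05 there were 3148 genes (13.3%), 1545 higher in db/db (6.53%) and 1603 lower (6.78%). DESeq2, run on the same counts, called 842 (3.56%), 401 higher (1.7%) and 441 lower (1.86%). The 6 and 6 libraries did not overlap for 440 genes (1.86%), 206 higher (0.871%) and 234 lower (0.989%). At the looser adjusted p of 0.10, a threshold added after seeing the data, edgeR called 71 (0.3%), of which 60 differed by less than 1 on the log2 scale and 39 by less than 0.5. Because 0 genes passed at 0.05, the genes below are given by their values, and "higher" and "lower" refer to the measured levels.

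Lepr itself was lower in every db/db library. It was at 2.004 to 2.77 CPM (median 2.503) in db/db and at 3.13 to 3.87 (median 3.40) in db/+. The groups did not overlap, and the difference was -0.48 (SE 0.10, edgeR adjusted p = 0.124). Reads of all receptor isoforms enter 1 count, which therefore does not show the mutation. Leprot, which starts at the same locus, was at 24.8 to 27.2 CPM in db/db and 25.2 to 30.4 in db/+ (-0.08, SE 0.05, edgeR adjusted p = 0.536). Of the 50 gene symbols on each side of Lepr, 55 were tested, with 0 higher and 4 lower at an unadjusted p under 0.05 (6.53% and 6.78% of all genes). Among them only Efcab7 separated the groups, at 1.19 to 1.87 CPM in db/db and 2.09 to 2.48 in db/+ (-0.62, SE 0.11, edgeR adjusted p = 0.0768). Efcab7 was named after its values were seen.

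The transcripts of the leptin signalling chain showed little difference. Of 22 genes, 2 were higher and 1, Lepr itself, lower at an unadjusted p under 0.05 (6.53% and 6.78% of all genes). The list median was 0.03, against -0.0001 for all genes. Stat3, the transcription factor that the receptor activates, was at 58.3 to 68.9 CPM in db/db and 50.9 to 62.7 in db/+ (0.14, SE 0.06, edgeR adjusted p = 0.353). Socs3, a feedback inhibitor that STAT3 induces, was at 1.80 to 3.12 CPM in db/db (median 2.80) and 1.999 to 3.04 in db/+ (median 2.67). Its groups overlapped throughout (0.06, SE 0.13, edgeR adjusted p = 0.904).

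Appetite peptides of the hypothalamus other than Pomc overlapped between the genotypes. Agrp, which drives feeding from the arcuate nucleus, was at 0.613 to 1.09 CPM in db/db and 0.630 to 0.936 in db/+ (0.20, SE 0.16). Npy, made by the same neurons but also widely in cortex, was at 37.4 to 44.2 and 35.0 to 46.1 CPM (0.08, SE 0.07). Cartpt, and Hcrt and Pmch of the lateral hypothalamus, for the peptides CART, orexin and melanin-concentrating hormone, differed by -0.08, -0.19 and 0.12. The edgeR adjusted p of these 5 genes was 0.409 to 0.718.

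Pomc, the precursor of melanocortins in the arcuate nucleus and of ACTH in the pituitary, was lower in every db/db library. It stood at 1.52 to 2.22 CPM (median 1.75) in db/db and at 2.31 to 28.8 (median 5.24) in db/+. The groups did not overlap, and the difference was -2.22 (SE 0.61, edgeR adjusted p = 0.182). The 3 highest db/+ values, 28.8, 10.9 and 7.17 CPM, belong to the 3 libraries that hold Gh and Prl. Without those libraries the difference was -0.67 (edgeR adjusted p = 0.438, with 0.00385 to 0.607 over all alternatives). The values of the other 3 db/+ libraries, 2.31, 2.87 and 3.31 CPM, were still above every db/db library.

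Avp, which encodes vasopressin, the hormone of water balance and a co-regulator of the stress axis, had the smallest p of the hypothalamic list in edgeR, although its groups overlapped. It was at 20.1 to 53.4 CPM (median 37.7) in db/db and at 10.5 to 21.3 (median 14.1) in db/+. Only the lowest db/db library, on sucrose, fell within the db/+ range. The difference was 1.23 (SE 0.17, edgeR adjusted p = 0.0649), and it was 1.14 without the 3 libraries with pituitary transcripts (edgeR adjusted p = 0.414, with 1.51e-08 to 0.414 over all alternatives). On the log2(CPM + 0.5) scale it was 1.24 on water, 1.02 on sucrose and 1.37 on brazzein. Oxt, for oxytocin, made in the same nuclei, was at 13.8 to 18.8 CPM in db/db and 9.89 to 14.7 in db/+ (0.43, SE 0.12, edgeR adjusted p = 0.188). Over 42 hypothalamic peptides and receptors, 3 were higher and 3 lower at an unadjusted p under 0.05, near the shares of all genes (6.53% and 6.78%), with a median of 0.08.

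**Figure D2:**
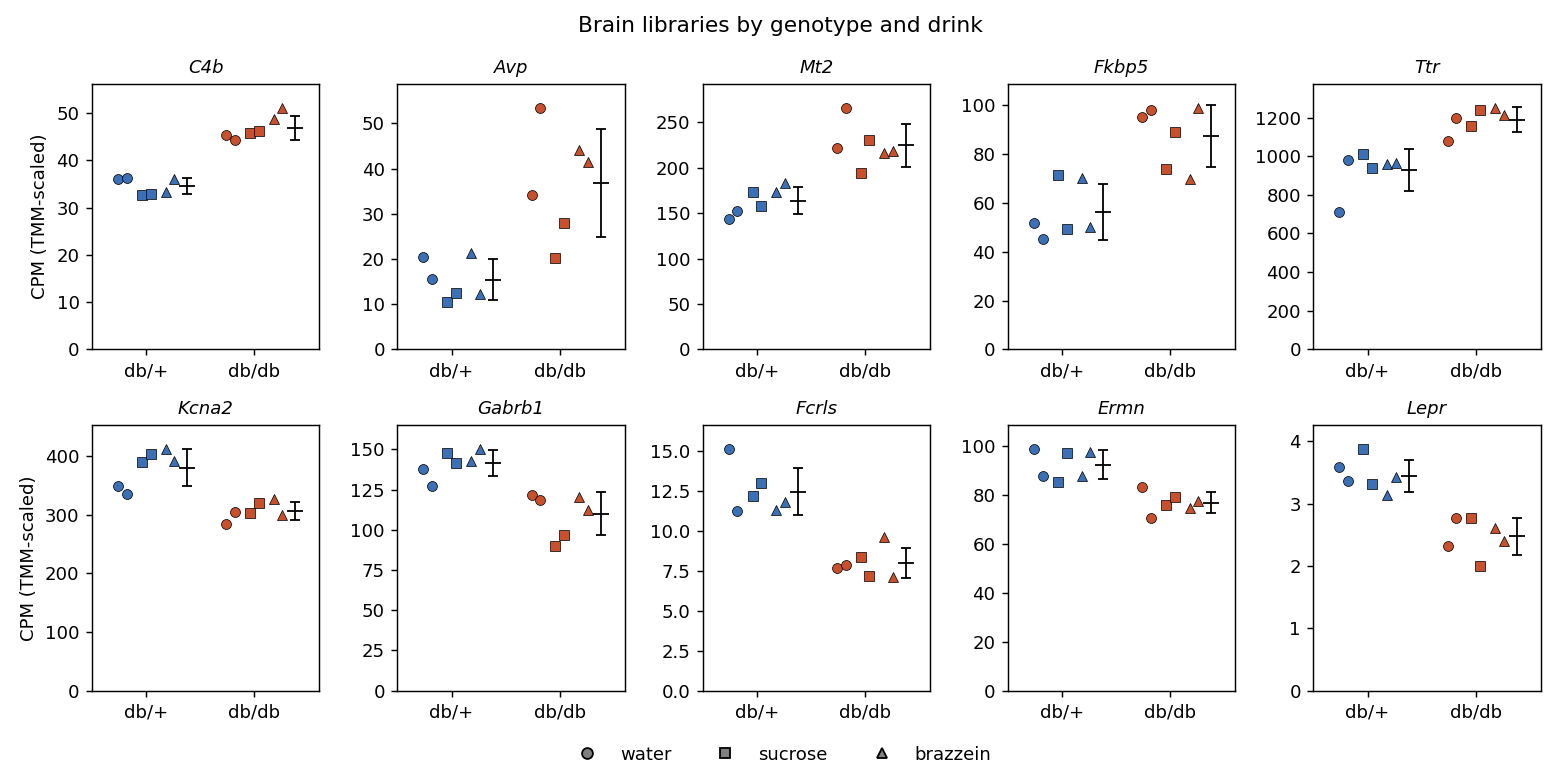
CPM of 10 genes in each brain library, by genotype and drink (marker shape), with mean and SD of 6 libraries beside each group. C4b, Mt2 and Ttr are higher in every db/db library, and Kcna2, Gabrb1, Fcrls, Ermn and Lepr lower in every db/db library, whereas Avp and Fkbp5 overlap.

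Genes induced by glucocorticoids were on the higher side in db/db. These are genes whose transcription rises when the ligand-bound glucocorticoid receptor binds near them. Of 36 tested, 15 were higher and 0 lower at an unadjusted p under 0.05 (6.53% and 6.78% of all genes). The list median was 0.31, and 28 of 36 lay above 0, against 11820 of 23653 for all genes. DESeq2 called 7 higher (1.7% of all genes) and edgeR 0. Over all alternatives the median ran from 0.17, without db/+ water replicate 2, to 0.32. Without the 3 libraries with pituitary transcripts, 14 of 36 were higher and 0 lower (4.37% and 4.5% of all genes in that fit), with a median of 0.31. In each library the median of the members, each relative to its own mean over the 12, was 0.03 to 0.33 in db/db against -0.32 to 0.13 in db/+, so single libraries overlapped.

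Mt2, a metallothionein that binds zinc, was at 194 to 266 CPM (median 220) in db/db and 144 to 183 (median 165) in db/+. No library crossed over (0.46, SE 0.08, edgeR adjusted p = 0.0848). Its neighbour and paralog Mt1 was at 315 to 404 CPM in db/db and 278 to 326 in db/+ (0.31, SE 0.06, edgeR adjusted p = 0.119). Sult1a1, a sulfotransferase, also separated the groups, at 21.04 to 29.8 and 12.97 to 18.9 CPM (0.57, SE 0.12, edgeR adjusted p = 0.119).

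Fkbp5, a co-chaperone that dampens the glucocorticoid receptor, was at 69.7 to 98.8 CPM (median 92.0) in db/db and 45.2 to 71.1 (median 51.0) in db/+. One db/db library on brazzein, at 69.7 CPM, fell below the highest db/+ library, at 71.1. The difference was 0.64 (SE 0.15, edgeR adjusted p = 0.145), and on the log2(CPM + 0.5) scale 0.99 on water, 0.45 on sucrose and 0.48 on brazzein, with an interaction adjusted p of 0.914. Cdkn1a, a cell cycle inhibitor, was at 37.0 to 73.6 CPM in db/db and 16.2 to 40.4 in db/+ (0.89, SE 0.26, edgeR adjusted p = 0.193). Per1, a clock gene, was at 80.0 to 119 and 69.4 to 82.7 CPM (0.39, SE 0.10, edgeR adjusted p = 0.175).

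Other classical targets varied more between libraries. Sgk1, a kinase that regulates ion channels, was at 129 to 212 CPM in db/db and 58.7 to 217 in db/+ (0.46, SE 0.24, edgeR adjusted p = 0.441). Tsc22d3, the anti-inflammatory factor GILZ, was at 67.0 to 109 and 35.2 to 101 CPM (0.43, SE 0.22, edgeR adjusted p = 0.434). Dusp1, a phosphatase on the same list, lay the other way, at 23.8 to 43.3 and 23.6 to 66.7 CPM (-0.49, SE 0.24). The immediate early genes, which respond to neuronal activity and handling, had 1 of 32 higher and 1 lower at an unadjusted p under 0.05 (6.53% and 6.78% of all genes). Their median was -0.07. Without the 3 libraries with pituitary transcripts 3 were higher and 1 lower (4.37% and 4.5% of all genes in that fit). The median of the immediate early genes was then 0.18, and without db/+ water replicate 1 alone it was 0.13, so the direction turned. Without db/db water replicate 2 it was 0.003. Among them Fos, at 5.83 to 52.0 CPM in db/+ alone, differed by -0.48 (SE 0.48), and by 0.40 without the 3 libraries.

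**Figure D3:**
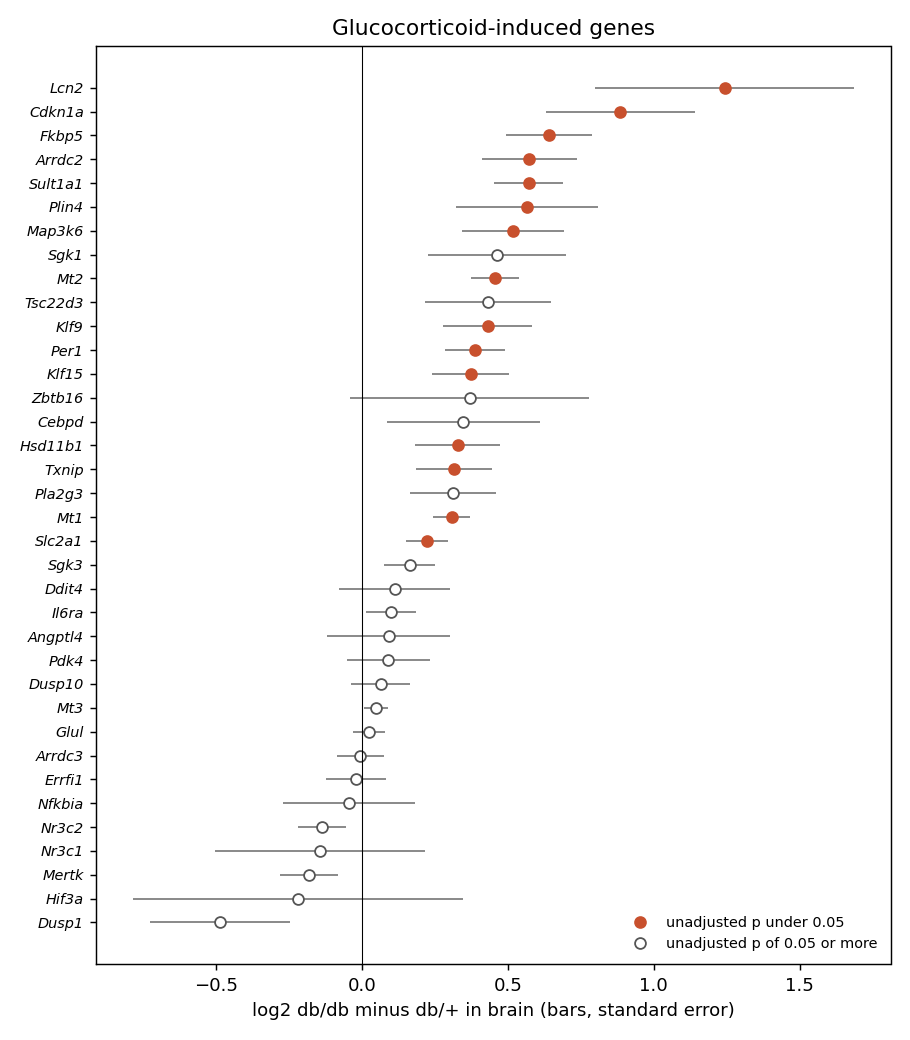
Log2 difference (db/db minus db/+ in brain) of the 36 glucocorticoid-induced genes, with bars for the SE. Filled points have an unadjusted p under 0.05, and all 15 of them lie above 0.

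Promoters of 30 of these 36 genes and of 14667 tested genes in all were found in the RefSeq table of build GRCm38.p6, which differs from the build of the counts. The glucocorticoid response element was searched as GNACANNNTGTNC, a palindrome and so the same on both strands, in the 250 bases before each start. It occurred in 4 of the 30 (13.3%) and in 56 of the 14667 (0.382%). The list was chosen as known targets, so this share says nothing about genotype. A match is a description and not a bound site. The 4 windows are printed because they are the list's members with this motif, 5′ to 3′ on the plus strand and ending at the base before the start, with the motif in capitals. They are chr4:133240568-133240817 for Map3k6, chr8:94178839-94179088 for Mt1, chr10:21993640-21993889 for Sgk1 and chr3:96557707-96557956 for Txnip.
Map3k6: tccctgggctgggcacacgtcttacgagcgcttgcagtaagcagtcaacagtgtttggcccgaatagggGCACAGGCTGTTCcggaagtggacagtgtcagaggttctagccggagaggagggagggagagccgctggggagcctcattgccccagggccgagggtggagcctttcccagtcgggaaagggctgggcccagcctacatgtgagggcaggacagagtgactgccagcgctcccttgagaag
Mt1: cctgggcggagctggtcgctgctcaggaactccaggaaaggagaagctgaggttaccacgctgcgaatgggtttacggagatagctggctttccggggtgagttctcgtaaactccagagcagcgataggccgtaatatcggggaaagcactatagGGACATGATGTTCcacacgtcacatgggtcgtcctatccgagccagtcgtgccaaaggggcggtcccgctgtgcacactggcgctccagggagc
Sgk1: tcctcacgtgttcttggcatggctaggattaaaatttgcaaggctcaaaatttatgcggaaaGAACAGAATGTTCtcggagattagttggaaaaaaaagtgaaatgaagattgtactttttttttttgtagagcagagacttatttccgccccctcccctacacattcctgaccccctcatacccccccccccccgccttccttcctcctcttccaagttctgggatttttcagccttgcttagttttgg
Txnip: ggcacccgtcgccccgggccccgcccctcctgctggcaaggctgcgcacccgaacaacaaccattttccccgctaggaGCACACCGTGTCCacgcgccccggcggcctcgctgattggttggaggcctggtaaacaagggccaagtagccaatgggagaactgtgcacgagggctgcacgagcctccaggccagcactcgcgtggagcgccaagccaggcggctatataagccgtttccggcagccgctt

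The motif begins 181 bases before the start in Map3k6, 94 in Mt1, 188 in Sgk1 and 172 in Txnip. All 4 genes were higher on average in db/db. Map3k6, a stress-activated kinase, was at 6.57 to 11.7 CPM in db/db and 5.19 to 8.82 in db/+ (0.52, SE 0.18, edgeR adjusted p = 0.252). Txnip, which binds thioredoxin and responds to glucose, was at 38.8 to 57.8 and 32.4 to 44.6 CPM (0.32, SE 0.13, edgeR adjusted p = 0.332).

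C4b, the complement component made by reactive astrocytes and other glia, had the smallest p of all genes. It was at 44.3 to 51.1 CPM (median 45.9) in db/db and 32.7 to 36.3 (median 34.6) in db/+. The 2 ranges are separated by a wide gap, with a difference of 0.44 (SE 0.05, edgeR adjusted p = 0.0508). Over the 22 alternatives its adjusted p ran from 6.77e-15 to 0.414 and was under 0.05 in 5, highest without the 3 libraries with pituitary transcripts, where the difference was 0.45. C4a is a near-identical copy, so how reads divide between them is uncertain. C4a was at 3.44 to 4.58 CPM in db/db and 2.71 to 3.75 in db/+ (0.32, SE 0.12).

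Genes of reactive astrocytes leaned the same way as C4b, which is 1 of them. Of 18, 11 were higher and 0 lower at an unadjusted p under 0.05 (6.53% and 6.78% of all genes), 17 lay above 0, and the median was 0.30. Their summed level was 247 to 298 CPM in db/db and 207 to 232 in db/+. Serpina3n, a protease inhibitor, was at 16.4 to 22.2 CPM in db/db and 12.7 to 17.7 in db/+ (0.38, SE 0.10, edgeR adjusted p = 0.182). Vim, an intermediate filament, was at 63.0 to 87.2 and 45.0 to 68.5 CPM (0.28, SE 0.10, edgeR adjusted p = 0.261). Lcn2, which is also on the glucocorticoid list, was at 0.868 to 1.46 and 0.0650 to 1.08 CPM (1.24, SE 0.44, edgeR adjusted p = 0.272). Without the 3 libraries with pituitary transcripts 6 of the 18 were higher at an unadjusted p under 0.05 (4.37% of all genes in that fit).

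General astrocyte markers lay on both sides. Of 15, 2 were higher and 3 lower at an unadjusted p under 0.05 (6.53% and 6.78% of all genes), with a median of -0.03. Gfap, the intermediate filament most used as an astrocyte marker, was at 223 to 328 CPM in db/db and 191 to 273 in db/+ (0.11, SE 0.09, edgeR adjusted p = 0.660). Fgfr3, a growth factor receptor of astrocytes, was lower in every db/db library, at 67.8 to 91.4 against 92.7 to 115 CPM (-0.43, SE 0.08, edgeR adjusted p = 0.0803). Kcnj10, the potassium channel Kir4.1 of astrocytes and oligodendrocytes, separated the groups as well, at 212 to 237 and 252 to 285 CPM (-0.24, SE 0.04, edgeR adjusted p = 0.0848). Kcnj10 was named after its values were seen. In bulk tissue, fewer cells of a type and less RNA per cell cannot be told apart.

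A few abundant genes of the choroid plexus, which secretes cerebrospinal fluid, and of the brain's coverings were higher in db/db. Ttr, the transthyretin of the choroid plexus, was at 1077 to 1250 CPM (median 1206) in db/db and 713 to 1010 (median 963) in db/+. All db/db libraries exceeded all db/+ ones (0.36, SE 0.07, edgeR adjusted p = 0.104), and without the 3 libraries with pituitary transcripts, which include the lowest, the difference was 0.31. Of 16 choroid plexus genes, 3 were higher and 0 lower at an unadjusted p under 0.05 (6.53% and 6.78% of all genes), and 12 lay above 0. The median was 0.12 (0.03 with Pcp2 as a covariate and 0.05 without the 3 libraries with pituitary transcripts) with a summed level of 1740 to 1903 CPM in db/db and 1202 to 1624 in db/+. Of 15 fibroblast genes of meninges and vessels, 6 were higher and 0 lower (6.53% and 6.78% of all genes), with a median of 0.17. Without the 3 libraries with pituitary transcripts 3 were higher (4.37% of all genes in that fit), and without db/db sucrose replicate 2 the median was 0.09. Ptgds, a prostaglandin synthase abundant in meninges, was at 1157 to 1291 CPM in db/db and 823 to 1151 in db/+ (0.25, SE 0.06, edgeR adjusted p = 0.143). Blood markers moved with genotype too: 5 of 10 were higher at an unadjusted p under 0.05 (6.53% of all genes) and 10 of 10 lay above 0, with a median of 0.61 and a summed level of 1698 to 2856 CPM in db/db and 1070 to 2181 in db/+. For blood the count was 2 without the 3 libraries with pituitary transcripts (4.37% of all genes in that fit). The blood count was 0 with Gh as a covariate, where the median was 0.28. It was 2 when replicate 1 of db/db on brazzein, or of either genotype on sucrose, was left out. It was 3 when replicate 2 of either genotype on water, or of db/+ on sucrose or brazzein, was left out. For the fits with Gh as a covariate or with a single library left out, the shares of all genes are not given here. Whether attached membranes or retained blood took part in these differences was not tested.

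Among matrix genes outside these lists, named after their values were seen, Sparc and Mgp were among the 71 at an adjusted p under 0.10. Sparc, a matrix glycoprotein, was at 866 to 927 CPM in db/db and 683 to 798 in db/+ (0.28, SE 0.04, edgeR adjusted p = 0.0755). Mgp, which inhibits calcification, was at 25.7 to 33.4 and 15.3 to 20.7 CPM (0.63, SE 0.09, edgeR adjusted p = 0.0755). Both separated the groups completely.

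Microglial genes leaned lower. Of 27, 10 were lower and 2 higher at an unadjusted p under 0.05 (6.78% and 6.53% of all genes), with a median of -0.13. Without the 3 libraries with pituitary transcripts 5 were lower and 1 higher (4.5% and 4.37% of all genes in that fit). Fcrls, a receptor-like gene of resident microglia, was at 7.09 to 9.61 CPM (median 7.77) in db/db and 11.2 to 15.1 (median 11.99) in db/+. All db/db libraries lay below all db/+ ones (-0.64, SE 0.11, edgeR adjusted p = 0.0755). Cx3cr1, the fractalkine receptor, was at 37.5 to 44.8 and 41.1 to 52.1 CPM (-0.28, SE 0.07, edgeR adjusted p = 0.151). Itgam, an integrin of myeloid cells, was at 12.2 to 16.2 and 16.3 to 19.5 CPM (-0.31, SE 0.08, edgeR adjusted p = 0.175). Spp1, osteopontin, went the other way, at 47.0 to 54.7 in db/db and 35.0 to 45.6 CPM in db/+ (0.26, SE 0.05, edgeR adjusted p = 0.124). The summed level of the list overlapped, at 2402 to 2588 and 2303 to 2579 CPM, and Aif1, the gene of IBA1, differed by -0.10 (SE 0.26).

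Genes of oligodendrocytes and myelin leaned lower as well. Of 22, 9 were lower and 0 higher at an unadjusted p under 0.05 (6.78% and 6.53% of all genes), with a median of -0.14. Without the 3 libraries with pituitary transcripts 4 were lower (4.5% of all genes in that fit). Ermn, a cytoskeletal protein of myelinating cells, was at 70.4 to 83.1 CPM in db/db and 85.4 to 98.7 in db/+ (-0.27, SE 0.06, edgeR adjusted p = 0.119). Mbp, a main myelin protein, was at 3647 to 3989 and 3841 to 4444 CPM (-0.10, SE 0.04). Of 9 markers of oligodendrocyte precursors, 0 had an unadjusted p under 0.05 in edgeR and DESeq2 also called 0, but 0 lay above 0, with a median of -0.07.

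Glutamate and GABA receptor genes were on the lower side. Of 37 glutamate and GABA receptor genes, 10 were lower and 0 higher at an unadjusted p under 0.05 (6.78% and 6.53% of all genes), 4 lay above 0, and the median was -0.11. The same count, 10 lower and 0 higher, was found without the 3 libraries with pituitary transcripts (4.5% and 4.37% of all genes in that fit). The median was -0.07 without db/db sucrose replicate 1. Gabrb1, a GABA-A receptor subunit, was at 90.1 to 121 CPM (median 115) in db/db and 127 to 150 (median 142) in db/+. The ranges were separate (-0.37, SE 0.07, edgeR adjusted p = 0.111). On the log2(CPM + 0.5) scale the difference was -0.14 on water, -0.63 on sucrose and -0.33 on brazzein, with an interaction adjusted p of 0.654. Grin2a, an NMDA receptor subunit, was at 99.7 to 135 and 123 to 148 CPM (-0.23, SE 0.07, edgeR adjusted p = 0.223).

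Kcna2, a potassium channel subunit of axons, was at 284 to 327 CPM (median 304) in db/db and 335 to 412 (median 392) in db/+. The groups did not overlap (-0.31, SE 0.04, edgeR adjusted p = 0.0508). Lynx1, which restrains nicotinic acetylcholine receptors, was at 462 to 487 and 530 to 567 CPM (-0.20, SE 0.02, edgeR adjusted p = 0.0508). Pex5l, a partner of HCN pacemaker channels, was at 28.2 to 41.3 and 45.1 to 55.7 CPM (-0.59, SE 0.08, edgeR adjusted p = 0.0649). Each of these 3 was lower in every db/db library. Pkd2l1, a channel of neurons that contact the cerebrospinal fluid, was at 0.967 to 1.47 and 1.86 to 2.76 CPM (-1.11, SE 0.13, edgeR adjusted p = 0.0508).

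The remaining genes of smallest p were of mixed kind. Ints10, an Integrator subunit, was at 10.9 to 17.8 CPM in db/db and 8.16 to 9.77 in db/+ (0.69, SE 0.09, edgeR adjusted p = 0.0508). Mettl25 was at 1.06 to 2.19 and 2.78 to 4.35 CPM (-1.14, SE 0.14, edgeR adjusted p = 0.0508). Pink1, a kinase of mitochondrial quality control, was at 706 to 743 and 652 to 676 CPM (0.13, SE 0.02, edgeR adjusted p = 0.0677). Dynlt2a1, from a family of near-identical copies whose reads may be split, was at 0.357 to 0.655 and 0.165 to 0.246 CPM (1.20, SE 0.16). None of these 4 overlapped between the groups.

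Nuclear genes of the respiratory chain were slightly higher in db/db. Of 46, 19 were higher and 0 lower at an unadjusted p under 0.05 (6.53% and 6.78% of all genes), 43 lay above 0 and the median was 0.06. The groups did not overlap for 7 of them, all higher (0.871% of all genes), and DESeq2 called 9 higher (1.7% of all genes). Cox4i1, a subunit of cytochrome c oxidase, was at 617 to 657 CPM (median 624) in db/db and 557 to 588 (median 565) in db/+ (0.15, SE 0.02, edgeR adjusted p = 0.0755). Ndufs7, of complex I, was at 102 to 108 and 90.7 to 97.8 CPM (0.15, SE 0.03, edgeR adjusted p = 0.119). When the 3 libraries with pituitary transcripts were left out, 11 of the 46 were higher (4.37% of all genes in that fit). Cytosolic ribosomal protein genes, a group chosen after seeing the data, had a median of 0.10, with 77 of 78 above 0.

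Transcript length moved with genotype in part. Across 13817 genes with a mean of at least 1 CPM and a known length, length and the log2 difference had a Spearman correlation of -0.21, a description of genes that share the 12 libraries. Within single libraries, with each gene relative to its mean, this correlation was -0.11 to -0.03 in db/db and 0.16 to 0.19 in the 4 db/+ libraries on sucrose or brazzein. The db/+ water libraries stood apart from these, at -0.05 in replicate 1, within the db/db range, and 0.03 in replicate 2. With the genes split by length into 4 equal bins, the medians from shortest to longest were 0.04, 0.02, -0.02 and -0.06. Of the 3455 genes in the shortest bin, 87 lay higher and 22 lower with no overlap. Of the 3454 in the longest bin, 13 lay higher and 79 lower. Over all 23653 genes tested, the shares were 0.871% higher and 0.989% lower. A smoothed length trend was then subtracted, an alternative chosen after seeing the data. Medians were taken over the members with a length and a mean of at least 1 CPM. They were 0.04 for the respiratory chain, with 36 of 46 above 0, and 0.07 for the ribosomal protein genes. The medians were -0.10 for glutamate and GABA receptors, -0.16 for microglia, -0.15 for myelin, 0.28 for glucocorticoid-induced genes and 0.247 for reactive astrocytes. Of the 18 reactive astrocyte genes, 12 met both conditions, and the median of those 12 before the subtraction was 0.255.

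**Figure D4:**
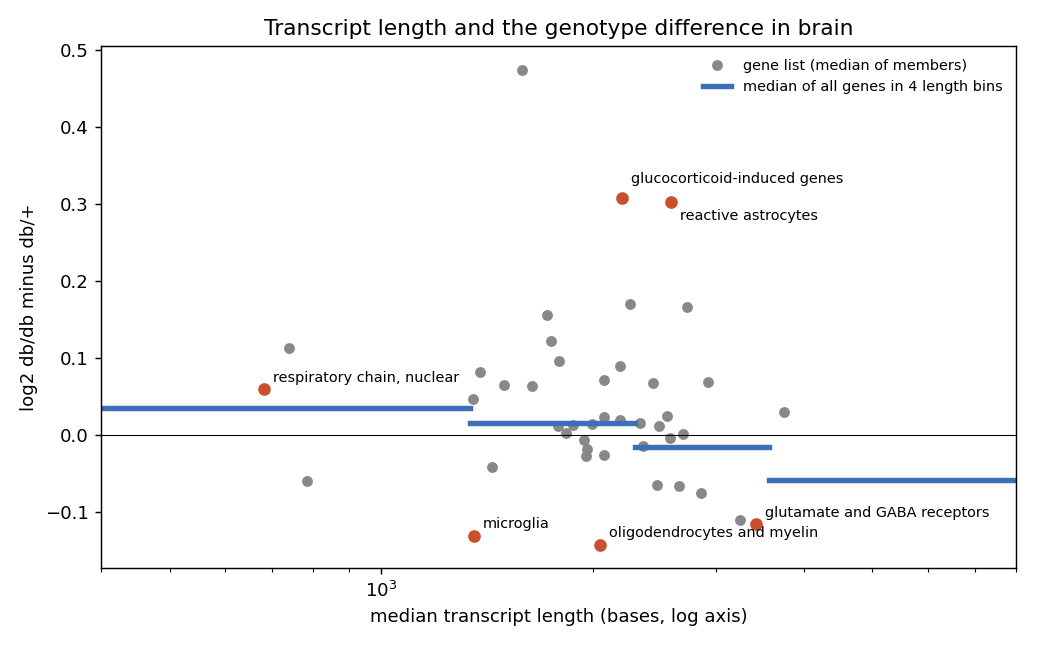
Median log2 difference (db/db minus db/+) of gene lists against the median transcript length of their members (bases, log axis). The pituitary, hepatocyte and blood lists, with medians of -1.39, 2.08 and 0.61, are not drawn. Bars give the median of all genes in each of 4 length bins. The bars run from 0.04 for short to -0.06 for long transcripts. The glucocorticoid and reactive astrocyte lists, at 0.31 and 0.30, lie well above them, and the pineal list, at 0.47, lies higher still.

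Among the 71 genes at an adjusted p under 0.10, a mitochondrial gene had the largest difference by fold. mt-Nd4 was at 0.312, 123, 25.6, 13.7, 12.7 and 71.6 CPM in db/db (water, sucrose and brazzein, 2 libraries each) and at 0.260 to 0.301 in db/+. All db/db libraries lay above db/+, the lowest by little (7.05, SE 1.18, edgeR adjusted p = 0.0768). mt-Nd4 shares a transcript with mt-Nd4l and overlaps it, and the counts assigned to mt-Nd4l were 4057 to 5176 CPM in db/db and 4962 to 5637 in db/+, so the division between the 2 names is uncertain. Both were named after their values were seen. Most other genes of the mitochondrial genome did not lie higher. Of the 15 tested, 1, mt-Nd4, was higher and 6 lower at an unadjusted p under 0.05 (6.53% and 6.78% of all genes). Their median was -0.06, with 5 above 0. Without the 3 libraries with pituitary transcripts, 3 were higher and 2 lower (4.37% and 4.5% of all genes in that fit), with a median of -0.01.

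**Figure D5:**
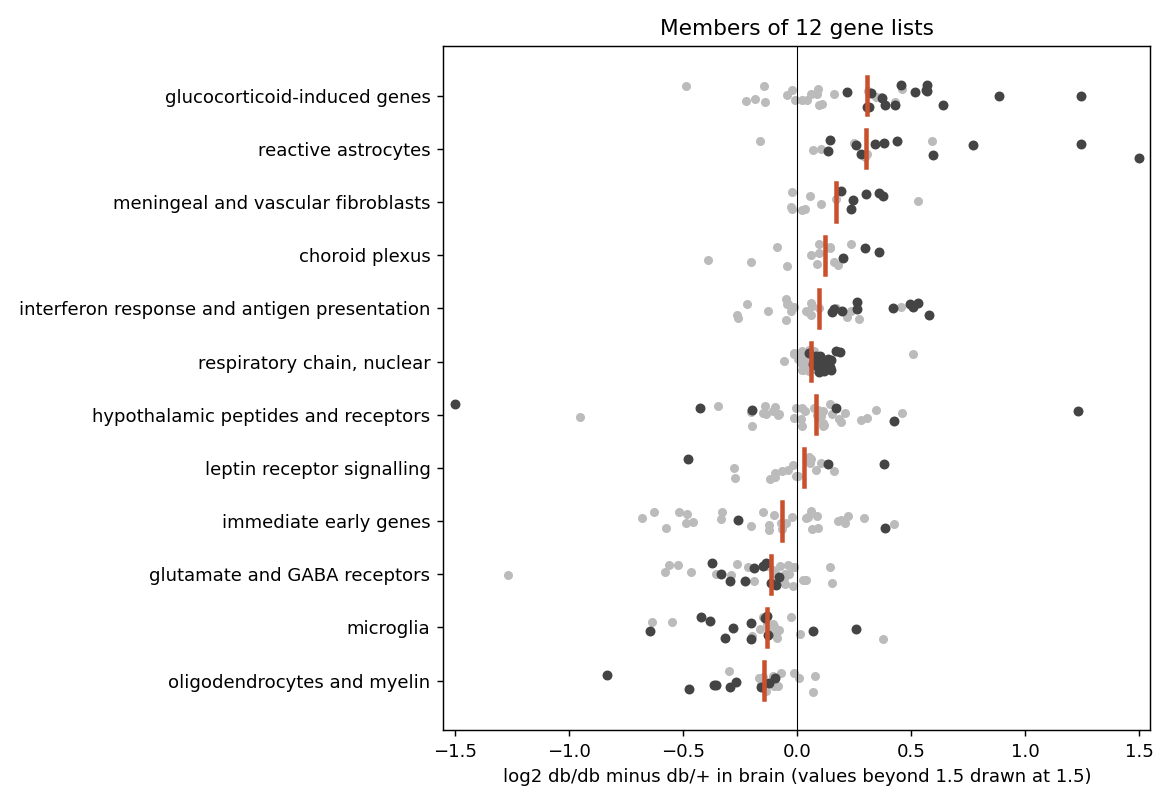
Log2 difference (db/db minus db/+ in brain) of each member of 12 gene lists, dark where the unadjusted p is under 0.05, with the list median as a bar. Medians run from 0.31 for glucocorticoid-induced genes to -0.14 for oligodendrocytes and myelin.

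Interferon and antigen presentation genes depended on the libraries used. Of 31, 10 were higher and 0 lower at an unadjusted p under 0.05 (6.53% and 6.78% of all genes), with a median of 0.10. Without the 3 libraries with pituitary transcripts, 1 was higher (4.37% of all genes in that fit). Without db/+ water replicate 1 alone, 6 were (the share of all genes in that fit is not given here). The glycolysis list had 7 of 30 higher and 1 lower (6.53% and 6.78% of all genes), with a median of 0.06. Slc2a1, the glucose transporter of the blood-brain barrier, was at 118 to 132 CPM in db/db and 93.2 to 128 in db/+ (0.22, SE 0.07, edgeR adjusted p = 0.233). The insulin and IGF signalling list had 3 of 30 higher and 2 lower, close to those shares, with a median of -0.003. Insr, the insulin receptor, varied widely within each group, at 24.1 to 43.1 and 11.4 to 46.3 CPM (0.11, SE 0.34).

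Whether the genotype difference depended on the drink was tested by the interaction. By edgeR 0 of 23653 genes passed (percent called 0), with 1290 at an unadjusted p under 0.05 (5.45%), and DESeq2's likelihood ratio test called 194. With 2 libraries per genotype and drink, a missed threshold does not show that the drinks acted alike.

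The genotype difference in brain was unlike that in liver for a share of genes. Of 25725 genes tested for a difference of differences, 2531 passed (9.84%), and edgeR called 2811 of 19352 (14.5%) for genotype in liver, against 0 in brain. The test between tissues took a shared estimate of spread per gene, although liver may vary more. It treated brain and liver libraries as independent, with no term for the animal. Igfbp2, which binds insulin-like growth factors, was at 50.6 to 58.6 CPM in db/db brain and 43.5 to 51.6 in db/+ (0.20), while its difference in liver was -6.08 (brain minus liver 6.26, SE 0.39, edgeR adjusted p = 2.98e-08). Limk1, a kinase of actin dynamics, differed by -0.09 in brain and 3.46 in liver (edgeR adjusted p of the difference = 7.47e-09). Anxa5, Ly6d and Sdcbp2, the other 3 with the smallest p, differed by -0.10, 0.13 and 0.42 in brain and by 1.88, 5.69 and 5.85 in liver. Of the 71 brain genes at an adjusted p under 0.10, 52 were tested in liver and 16 were called there, 30.8% of those tested (14.5% of all genes tested in liver), 22.5% of the 71 and 0.569% of the liver calls. Of these 16, 6 had the same direction in both tissues, C4b among them (0.44 in brain and 0.59 in liver).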

How the data were processed

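Poly(A) RNA was isolated from TRIzol extracts and libraries were built with the NEBNext Ultra II kit, per the labels' protocols, and the kit named does not mark strand, so overlapping or antisense genes were not told apart. The submitters' processing notes name bcl2fastq and the genome build GRCm39. The aligner and the counter are named in neither, nor are the gene models. The expected counts (estimated counts) were deposited by the authors as 1 file per library, with whole numbers for 55797 gene names and no scaling for library size. Brain totals were 58287665 to 77772849. The counts being estimates, they carry no counting interval here.

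Genotype was tested by edgeR 4.0.16 under R 4.3.3, with filterByExpr by the 6 groups of genotype and drink, TMM scaling, and glmQLFit and glmQLFTest with drink as a covariate, with Benjamini-Hochberg adjustment over all genes and a threshold of 0.05. The difference between tissues used all 24 libraries. The deposited headers of the 2 db/+ brazzein liver libraries name each other's replicate, which bears only on the replicate block. Alternatives for genotype were fits with DESeq2 1.42.0, with RLE factors, without the filter, with a 6-group fit, no drink covariate, a replicate block, log2 CPM (offset 0.5) of Pcp2 or Gh as a covariate, and leaving out each library. Those added after seeing the data were an adjusted p of 0.10, a robust prior, leaving out 3 libraries, and subtracting a lowess trend (fraction 0.3) on transcript length. The steps were run on simulated counts, with the outcome not given here. Those counts were drawn gene by gene, with no length trend and no uneven pituitary content between libraries. The simulation therefore does not bear on these features of the data. Gene lists come from textbook knowledge and overlap in part. The members, lists and tests were chosen with earlier results of these data known. Named genes are a panel of metabolic, hypothalamic and cell type genes, the 10 genes of smallest p and the 5 of smallest p between tissues, plus list members that illustrate a list, which were picked after their values were seen since 0 passed the threshold. Promoter windows and the gene order around Lepr come from RefSeq tables of GRCm38.p6, and transcript lengths from a GENCODE annotation of the same build, matched by symbol for 13817 of 16035 genes (86.2%). Some panel and list genes are not reported here.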

Additional observations from a re-analysis of the deposited data

Results flagged for a closer look

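In groups of 6 libraries, a single library stood apart from the rest of its genotype by Dixon's criterion in 11 of 98 groups examined. That criterion is met by about 1 in 20 groups of normally distributed values. The groups here mix 3 drinks, share the same 12 libraries and include genes picked for a small p. Whether 11 exceeds chance was therefore not tested. In db/+ sucrose replicate 1, Gh was at 311 CPM, with 111 in the next library. In db/+ brazzein replicate 2, Pomc was at 28.8 CPM, with 10.9 in the next. In db/+ water replicate 1, Pcp2 was at 17.3 CPM (nearest 63.1), Ttr at 713 (nearest 941) and Pmch at 28.2 (nearest 23.5). In db/+ sucrose replicate 2, Limk1 was at 110 CPM (nearest 103).

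Among db/db libraries, Pomc was at 2.22 CPM in water replicate 1 (nearest 1.77), and Limk1 at 102 in the same library (nearest 97.8). Pkd2l1 was at 1.47 CPM in water replicate 2 (nearest 1.04), which was still below every db/+ library. In brazzein replicate 2, Gfap was at 328 CPM (nearest 250) and Pcp2 at 60.7 (nearest 68.4).

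The genotype difference differed between brain and liver, by edgeR's test of the difference, for 4 named genes beside the 5 of smallest p. Brain minus liver was -0.579 for Leprot (adjusted p = 0.0246), -1.95 for Mbp (0.000829), 1.25 for Igf1 (0.000809) and -1.49 for Lynx1 (0.00362), all on the log2 scale. In brain alone Igf1, the insulin-like growth factor gene, differed by -0.04, and in liver by -1.29.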

How the results depend on the processing

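The count of genes for genotype was 0 with RLE factors, no filter on low counts, the replicate block, either covariate and without the 3 libraries with pituitary transcripts. It was 842 by DESeq2 (401 higher, 441 lower), 2 in the 6-group fit, 54 without the drink covariate (23 higher, 31 lower), 6 with a robust prior and 71 at an adjusted p of 0.10. Leaving out 1 library gave 0 to 3, with 3 without db/db water replicate 2. The interaction with drink gave 0 genes with RLE factors, no filter or the block, 194 by DESeq2, 3 without the 3 libraries and 2 to 26 leaving out 1 library, 26 without db/+ water replicate 2. The difference between tissues gave 4185 genes by DESeq2 (main 2531), 2487 with RLE factors, 1824 with no filter, 2494 with the block and 1880 to 1968 leaving out 1 library. The cause of these shifts was not tested.

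Replicate numbers did not pair the libraries: correlations of same-numbered deviations over 15 pairs of groups were -0.056 to 0.056, with 0 over 0.1. With the replicate number as a block, 0 genes passed for genotype. Values over the alternatives were compared for named genes, list members with an unadjusted p under 0.05 in the main fit, and genes at an adjusted p under 0.10. Of these values, 6383 kept their direction and side of the threshold, 202 passed only in the alternative and 35 changed sign with no call in either. Many of these genes were picked for a small p in the same data, and most edgeR alternatives called 0 genes. The counts therefore do not measure robustness. Of list medians, 890 stayed within the spread between libraries and 144 moved. The pituitary list median ran from -2.73 to -0.03, and that of immediate early genes from -0.16 to 0.18, a change of sign.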

Other observations

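Alb, the serum albumin gene of hepatocytes, was listed at 0 in all 6 db/+ brain libraries and at 0.476, 2.46, 3.78, 0, 0 and 4.82 CPM in the db/db libraries (water, sucrose and brazzein, 2 each). Of 14 hepatocyte markers 9 were tested, and the abundant one among them, Ttr, is also made by choroid plexus.

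Apln, which encodes the peptide apelin, was lower in every db/db library, at 16.2 to 19.003 CPM against 20.5 to 24.5 (log2 -0.37, SE 0.06, edgeR adjusted p = 0.0755). Scd2, the main brain form of the stearoyl-CoA desaturases, was at 1254 to 1385 CPM in db/db and 1410 to 1580 in db/+ (log2 -0.16, SE 0.02, edgeR adjusted p = 0.0755). In liver the Scd2 difference was 4.44, and the test of brain minus liver gave an edgeR adjusted p of 0.00223. Il33, an alarmin stored in nuclei of astrocytes and oligodendrocytes, was at 57.6 to 73.7 CPM in db/db and 73.2 to 95.0 in db/+ (log2 -0.40, SE 0.06, edgeR adjusted p = 0.0755), and its liver difference was 1.20. Tdo2, which opens tryptophan breakdown, was at 3.18 to 3.97 and 2.09 to 2.82 CPM (log2 0.51, SE 0.09, edgeR adjusted p = 0.0768). These genes were chosen after their values were seen.

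Nr3c1, the glucocorticoid receptor gene, varied more within each genotype than between them, at 22.4 to 54.3 CPM in db/db and 20.2 to 68.1 in db/+ (log2 -0.15, SE 0.36). Bcas1, of newly forming oligodendrocytes, was at 40.9 to 100.4 CPM in db/db and 53.2 to 139 in db/+ (log2 -0.83, SE 0.24, edgeR adjusted p = 0.186).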
